A study of Rattus norvegicus with 4 samples.

Results

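The 10 genes analysed here encode chaperones of the endoplasmic reticulum lumen, and their mRNAs were followed in rat primary Sertoli cells with and without 4-nonylphenol. They are Hspa5, Hsp90b1, Hyou1, Dnajb9, Dnajb11, Dnajc3, Sdf2l1, Creld2, Manf and Calr. They were taken by name from the deposited mRNA table, which held 13114 gene names. All 10 were listed and all 10 passed the level filter, as did 8012 gene names in all. The choice was by name and role and not by a measured value, although it was made with earlier results of these data known.

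Sertoli cells are the somatic cells of the seminiferous tubule that nurse germ cells, and 4-nonylphenol (4-NP) is an alkylphenol pollutant that can bind estrogen receptors. The tested cells received 4-NP for 24 h (2 libraries), and the control cells were cultured without it (2 libraries). The cells of both groups came from testes of neonatal Sprague-Dawley rats, enriched for Sertoli cells by digestion of the tissue, so other testis cells could remain. Nothing in the labels says that the 2 libraries of a group were separate cultures. The p-values therefore speak to the spread among these 4 libraries, which may be technical. Levels are in FPKM, fragments scaled to transcript length and to the mapped fragments of the library.

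Secreted and membrane proteins fold in the lumen of the endoplasmic reticulum, where Hspa5 (BiP), an Hsp70 ATPase, binds exposed hydrophobic stretches of unfolded chains. J-domain proteins deliver clients to it and stimulate its ATPase, exchange factors release the nucleotide, and the Hsp90 of the lumen and the lectin chaperones take over particular clients. When unfolded protein builds up, the sensors ATF6, IRE1 and PERK start the unfolded protein response, which is known in mammals to raise transcription of such chaperones through ER stress elements (ERSE) in their promoters.

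The letters of these elements were searched in RefSeq promoter windows (assembly GRCr8), which run from 250 bases before to 50 bases after each annotated start. The ERSE was searched as CCAAT, 9 bases of any kind and CCACG. The ERSE-II was searched as ATTGG, 1 base of any kind and CCACG. Both strands were read. Of the 10 genes, 9 had a window and Manf had none in the table. The 9 genes had 10 windows, since Hyou1 had 2. An ERSE was held by 5 of these genes, which were Hspa5, Hsp90b1, Dnajc3, Creld2 and Calr. With them counted, it was held by 21 of all 27457 gene symbols, in 22 of 33469 windows (0.0657%). Hyou1 and Dnajb11 held an ERSE-II, which was in 17 windows of all (0.0508%), theirs counted. Dnajb9 and Sdf2l1 held neither. Such elements were already known from chaperone promoters, so these shares describe the windows and test nothing. The matches are shown because 7 of the 9 genes held 1 of the 2 elements. Both matches of Hyou1 were in 1 of its 2 windows, and its distances are counted from the annotated start of that window. Each is written on the strand where the element reads forward, with 5 bases on either side and the fixed letters of the element in capitals.
Hspa5 ERSE, chr3:38452968-38452996, gene strand: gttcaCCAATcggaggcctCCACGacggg
Hsp90b1 ERSE, chr7:23012342-23012370, opposite strand: acccaCCAATcgtgcctcaCCACGcactc
Hsp90b1 ERSE, chr7:23012446-23012474, gene strand: caaacCCAATcgaaaggagCCACGcttcg
Dnajc3 ERSE, chr15:102432529-102432557, gene strand: caaagCCAATcagcgccaaCCACGaccca
Creld2 ERSE, chr7:121789234-121789262, opposite strand: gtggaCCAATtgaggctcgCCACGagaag
Calr ERSE, chr19:40213130-40213158, opposite strand: ctgggCCAATcagggtcgaCCACGcgttg
Dnajb11 ERSE-II, chr11:91672795-91672815, gene strand: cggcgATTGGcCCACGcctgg
Hyou1 ERSE-II, chr8:53602689-53602709, opposite strand: tgcggATTGGcCCACGtcacg
Hyou1 ERSE-II, chr8:53602789-53602809, opposite strand: tccccATTGGgCCACGtagaa

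The element of Hspa5 lay closest to the start among the ERSE matches, at -43 to -25 bases, and that of Calr lay farthest, at -232 to -214. The pair in the Hsp90b1 promoter lay at -176 to -158 and at -72 to -54, on opposite strands. The ERSE-II of Dnajb11 ended on the annotated start itself, at -10 to 0. A further search for the core of the unfolded protein response element, TGACGTG, matched Hspa5 and Hyou1 and 605 windows of all (1.81%). These cores are shown with the same 5 flanking bases.
Hspa5 core, chr3:38452876-38452892, gene strand: accagTGACGTGagttg
Hyou1 core, chr8:53602686-53602702, gene strand: aaccgTGACGTGggcca
In Hyou1 the core, at -191 to -185, overlapped the farther ERSE-II, at -188 to -178, so the 2 matches share letters. The core of the C/EBP-ATF element bound by ATF4 and CHOP, TGATGNAA, was in none of the 10 windows and in 1332 windows of all (3.98%). A match describes letters only, and binding was not measured.

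**Figure D1:**
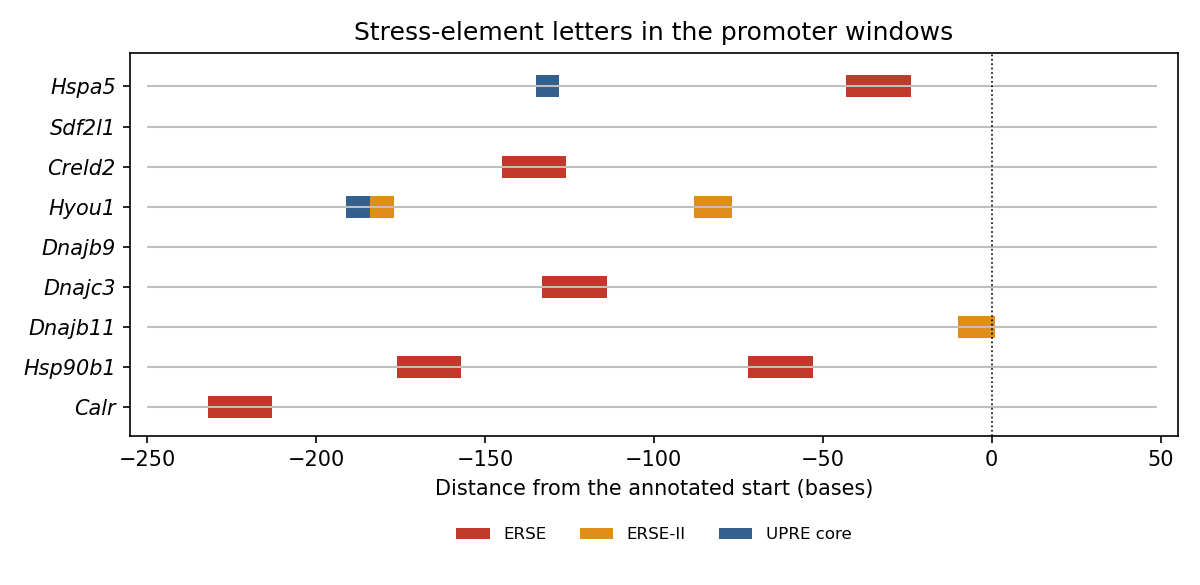
Positions of the element letters in the promoter windows of 9 chaperone genes, drawn to scale as the distance in bases from the annotated start (dotted line), with ERSE, ERSE-II and the unfolded protein response element core as coloured boxes. Of the 9 genes, 7 carry an ERSE or an ERSE-II, Sdf2l1 and Dnajb9 carry none, and in Hyou1 the core box overlaps the farther ERSE-II.

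The comparison of 4-NP with control cells asked how the mRNAs of the lumen chaperones differed after exposure. Every one of the 10 genes was higher in both 4-NP libraries than in both controls, which held for 40.1% of all tested genes. Of them, 9 passed the test (limma, Benjamini-Hochberg adjusted p under 0.05 over 8012 genes), all in the direction of higher levels, against 24.7% of all tested genes higher and 23.1% lower. The median log2 change of the 10 genes was 2.28, beside 0.05 for all tested genes. The exception was Hyou1, whose 4-NP libraries differed widely. Hsp90b1 entered the test only through its level in 4-NP cells, so its place among the 9 is no support for a difference, and 8 of the other 9 genes passed. Log2 changes were computed after adding 1 to each FPKM value, so genes of low level show a smaller change than their ratio of means.

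Hspa5, the Hsp70 at the centre of the system, had 7894 and 8026 FPKM in the 4-NP libraries, against 416 and 412 FPKM in the controls. The means were 7960.1 ± 93.6 FPKM in 4-NP cells and 414 ± 2.72 FPKM in control cells (SD, n = 2 each), a ratio of 19.2. Its log2 change was 4.26 ± 0.05 (SE, adjusted p = 0.000380). The replicates lay close together and the groups were far apart. No gene name had a higher mean FPKM in 4-NP cells than Hspa5, which ranked 100 in control cells. The transcript has 9 exons and lies on chromosome 3 from 13838304 to 13842762 in the deposited coordinates, for which no build is named in the sources used here.

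**Figure D2:**
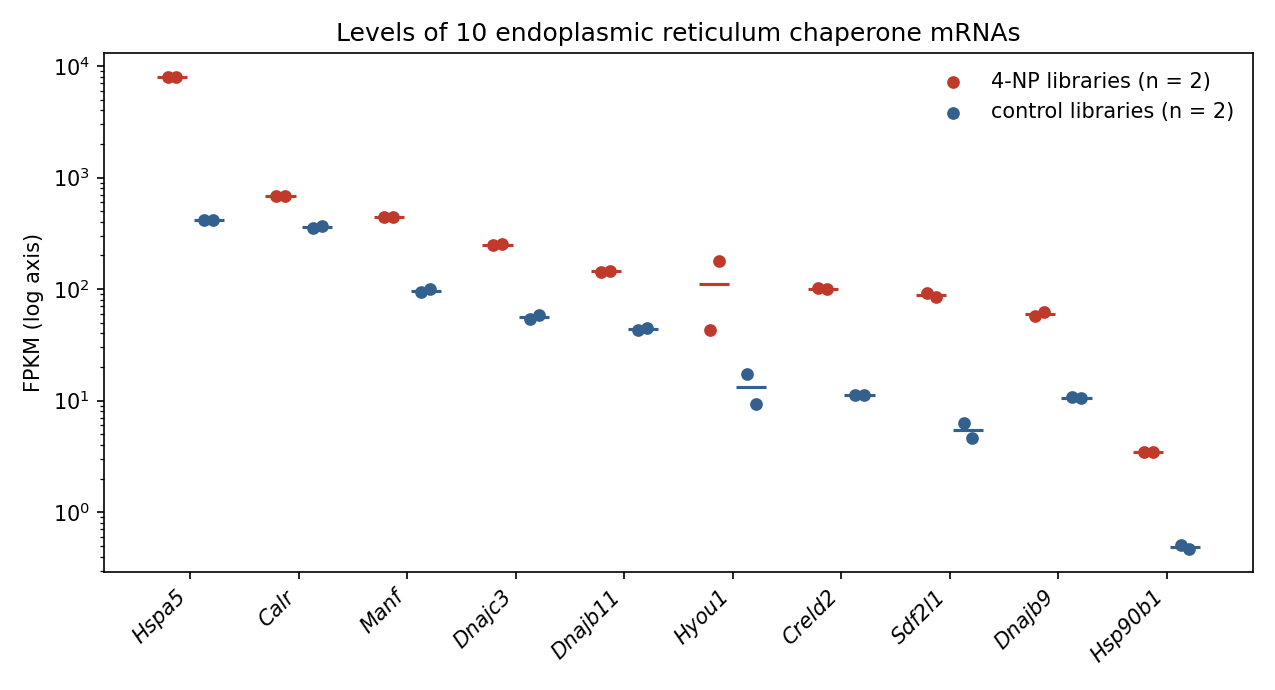
FPKM (log axis) of the 10 chaperone mRNAs, ordered by mean level in 4-NP cells. Points are libraries, 2 of 4-NP cells on the left and 2 of control cells on the right of each pair, and bars are group means. For every gene both 4-NP points lie above both control points, and Hyou1 is the gene whose 4-NP points stand apart from each other, at 43.3 and 179 FPKM.

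Of the other genes, 4 act on the Hspa5 cycle as exchange factor or J-domain protein. Hyou1, a large Hsp70 relative that exchanges the nucleotide of BiP, had 43.3 and 179 FPKM in the 4-NP libraries, against 17.3 and 9.39 FPKM in the controls. Even the lower 4-NP value was 2.50 times the higher control value. The 4-NP libraries differed from each other 4.13-fold, and as large a difference between these 2 libraries was seen in 104 of the 4918 genes that averaged 5 FPKM or more (2.11%). The controls differed 1.85-fold. In the other 9 genes replicates differed at most 1.10-fold in 4-NP cells and 1.37-fold in control cells. The log2 change of Hyou1 was 2.69 ± 0.80, with an adjusted p of 0.0609, so it did not pass. Without 4-NP replicate 1 the log2 change was 3.70 and passed (adjusted p = 0.0309), and without 4-NP replicate 2 it was 1.68 and did not (adjusted p = 0.0952). Without control replicate 1 it was 3.10 (adjusted p = 0.133) and without control replicate 2 it was 2.28 (adjusted p = 0.217). Over all alternatives the adjusted p ranged over 0.0309 to 0.217. It was read from 1 transcript with 26 exons, on chromosome 8 from 48699769 to 48711910.

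The J-domain proteins were more even. Dnajb9 (ERdj4), which works with BiP on IRE1 and in the removal of misfolded protein, had 56.8 and 62.7 FPKM in the 4-NP libraries, against 10.8 and 10.5 FPKM in the controls. This was a ratio of 5.60 and a log2 change of 2.38 ± 0.09 (adjusted p = 0.000896). The gene had 2 listed transcripts on chromosome 6, and the main one, from 64165913 to 64170151, carried nearly all of the signal in each library. The shorter transcript had 1.77 and 1.23 FPKM in 4-NP cells, against 0.0389 and 0.142 FPKM in control cells. Dnajc3, a J-domain protein of the lumen first described as an inhibitor of the kinases PKR and PERK, had 247 and 252 FPKM in the 4-NP libraries, against 54.3 and 58.1 FPKM in the controls. The ratio was 4.44 and the log2 change 2.13 ± 0.06 (adjusted p = 0.000783).

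Dnajb11 (ERdj3), which binds unfolded clients itself before passing them to BiP, had 144 and 145 FPKM in the 4-NP libraries, against 43.1 and 44.8 FPKM in the controls. The ratio was 3.29 and the log2 change 1.69 ± 0.06 (adjusted p = 0.000842). Sdf2l1, which forms a complex with Dnajb11, moved more on the log2 scale than that partner. It had 92.4 and 85.6 FPKM in the 4-NP libraries, against 6.29 and 4.58 FPKM in the controls. The ratio was 16.4 and the log2 change 3.82 ± 0.16 (adjusted p = 0.00113), next in size to that of Hspa5. The 2 genes of this complex lie on chromosome 11 in the deposited table, Dnajb11 from 81741297 to 81757813 with 10 exons and Sdf2l1 from 88122271 to 88124513 with 3 exons. In FPKM per library Sdf2l1 stood below Dnajb11 in both groups, and the ratio of Dnajb11 to Sdf2l1 was smaller in 4-NP cells. The difference between the partners was not tested.

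Manf and Creld2 are small proteins of the lumen that are also secreted. Manf, which binds BiP and slows its nucleotide exchange, had 441 and 444 FPKM in the 4-NP libraries, against 93.2 and 100.1 FPKM in the controls. Its ratio was 4.58 and its log2 change 2.18 ± 0.06 (adjusted p = 0.000781). Creld2, a protein with EGF-like repeats and a disulfide-handling motif, had 102 and 99.5 FPKM in the 4-NP libraries, against 11.1 and 11.2 FPKM in the controls. Its ratio was 9.03 and its log2 change 3.07 ± 0.06 (adjusted p = 0.000587). For both genes the replicates of a group were close and the groups did not overlap. Manf lies on chromosome 8 from 115623178 to 115626380 and Creld2 on chromosome 7 from 129812789 to 129819634.

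Hsp90b1 and Calr, which act beside the BiP cycle, had the smallest log2 changes of the 10 genes. Hsp90b1 (GRP94), the Hsp90 of the lumen that folds integrins and Toll-like receptors, had 3.44 and 3.45 FPKM in the 4-NP libraries, against 0.507 and 0.472 FPKM in the controls. The ratio of means was 7.03, while the log2 change was 1.58 ± 0.15 (adjusted p = 0.00402). Its control mean of 0.490 FPKM was below the filter of 1 FPKM, which it passed through the 4-NP group alone. At so low a level this change rests on the pseudocount, and it was 2.59 with a pseudocount of 0.1 and 0.62 with one of 5. In rank order of levels Hsp90b1 was the last of the 10 genes in both groups, at 5401 among all gene names in 4-NP cells and 9122 in control cells. Only 1 transcript was listed under this name, with 17 exons on chromosome 7 from 27226596 to 27240533, and whether this row holds all of the mRNA of the gene cannot be told from the table. Its level and rank are therefore those of the listed transcript.

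Calr, the soluble calcium-binding lectin that folds glycoproteins with one glucose left on their glycans, had 683 and 687 FPKM in the 4-NP libraries, against 355 and 364 FPKM in the controls. The means were 685 ± 2.97 FPKM in 4-NP cells and 359 ± 6.22 FPKM in control cells (SD, n = 2 each). The ratio was 1.91 and the log2 change 0.93 ± 0.05 (adjusted p = 0.00142). It was thus among the most abundant of these mRNAs in both groups and changed least. On the log2 scale it ranked 1214 of 8012 tested genes, where Hspa5 ranked 15 and Sdf2l1 23. The gene lies on chromosome 19 from 25956771 to 25961666.

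In level the order in 4-NP cells was Hspa5, Calr, Manf, Dnajc3, Dnajb11, Hyou1, Creld2, Sdf2l1, Dnajb9 and Hsp90b1. In control cells it was the same except that Dnajb9 stood above Sdf2l1. Hyou1 could not be placed, because its 4-NP libraries lay on either side of Dnajb11, Creld2, Sdf2l1 and Dnajb9 and its control libraries on either side of Creld2 and Dnajb9. The other neighbours in the order did not overlap in their libraries. In log2 change Manf and Dnajc3 lay within their standard errors of each other, as did Dnajb11 and Hsp90b1. The place of Hsp90b1 rests on the pseudocount. Hyou1, at 2.69 ± 0.80, could not be placed here either, since Creld2, Dnajb9, Manf and Dnajc3 lay within its standard error.

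The make-up of the chaperone mRNAs differed between the groups. Summed over the 10 genes, the FPKM came to 9707 and 9985 in the 4-NP libraries, against 1008 and 1015 in the controls. This was 3.40% and 3.47% of the FPKM of all genes in the 4-NP libraries, against 0.381% and 0.368% in the controls. Most of the difference was Hspa5. Without it the other 9 genes came to 0.635% and 0.681% in the 4-NP libraries, against 0.223% and 0.219% in the controls.

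Within the sum Hspa5 made up 81.3% and 80.4% in the 4-NP libraries, against 41.3% and 40.6% in the controls. Calr made up 7.04% and 6.88% in the 4-NP libraries, against 35.2% and 35.8% in the controls. Control cells thus held nearly as much Calr as Hspa5 mRNA by FPKM, and 4-NP cells did not. For each 100 FPKM of Hspa5 there were 8.65 and 8.56 FPKM of Calr in the 4-NP libraries, against 85.3 and 88.2 in the controls. Of the cochaperones, Dnajc3 had 3.13 and 3.14 FPKM per 100 FPKM of Hspa5 in the 4-NP libraries, against 13.0 and 14.1 in the controls. Dnajb11 had 1.82 and 1.81 in the 4-NP libraries, against 10.3 and 10.9 in the controls. Sdf2l1 was the gene that kept nearest to Hspa5, with 1.17 and 1.07 per 100 in the 4-NP libraries, against 1.51 and 1.11 in the controls, and here the groups overlapped. These ratios describe the libraries and were not tested.

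**Figure D3:**
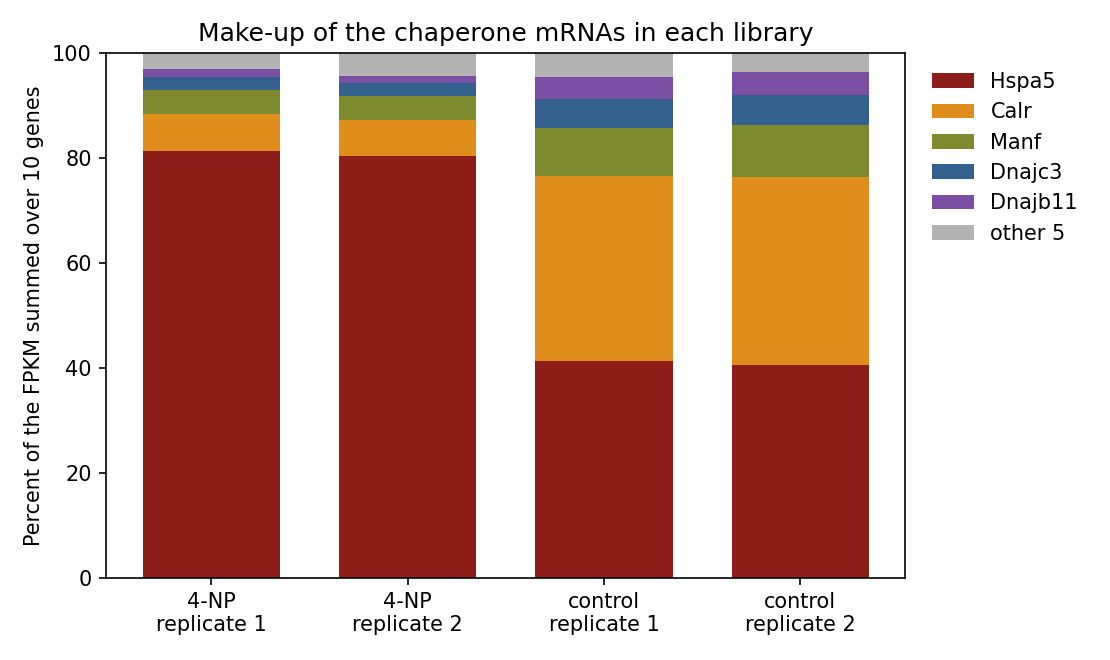
Share of each gene in the FPKM summed over the 10 chaperone genes, in percent, for the 2 4-NP libraries on the left and the 2 control libraries on the right. The 5 most abundant genes have a colour each and the other 5 are grey. Hspa5 takes 81.3% and 80.4% in the 4-NP libraries, against 41.3% and 40.6% in the controls, where Calr takes 35.2% and 35.8%.

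Relatives of the same family were set beside the chaperones, some from the cytosol or the mitochondrion and others from the reticulum itself. In 13 of 14 pairs with both genes tested, the chaperone from the list of 10 had the larger log2 change. The difference within a pair was not tested. Hsp90b1 entered the test only through its level in 4-NP cells, so its pairs with Hsp90ab1, Hsp90aa1 and Trap1 add no support. Hyou1, set beside Hspa4 and Hsph1, did not pass the test. Without 4-NP replicate 2 the pair of Hyou1 and Hspa4 turned, with 1.68 for Hyou1, and without control replicate 1 the member was larger in 14 of 14 pairs. Hspa9, the mitochondrial Hsp70, had 472 and 501 FPKM in the 4-NP libraries, against 196 and 203 FPKM in the controls, a log2 change of 1.28 beside 4.26 for Hspa5 (adjusted p = 0.00122 for Hspa9). The large cytosolic Hsp70 relatives of Hyou1 were higher too, Hspa4 with a log2 change of 2.00 (adjusted p = 0.000842) and Hsph1 with 1.39 (adjusted p = 0.00271). The cytosolic J-domain genes Dnaja1 and Dnajb1 did not pass, with log2 changes of -0.13 and -0.27, while Dnaja3 of the mitochondrion was higher by 1.29 (adjusted p = 0.00137). Hspa8, the constitutive cytosolic Hsp70, was not analysed here.

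The relatives of Hsp90b1 had smaller log2 changes, although that of Hsp90b1 itself rests on the pseudocount. The cytosolic Hsp90ab1 had 292 and 338 FPKM in the 4-NP libraries, against 396 and 447 FPKM in the controls (log2 change -0.42, adjusted p = 0.0432). The stress-inducible cytosolic Hsp90aa1 was higher by 0.61 (adjusted p = 0.0307) and the mitochondrial Trap1 by 0.40 (adjusted p = 0.0369). The calls of Hsp90aa1 and Hsp90ab1 were lost whichever of the 4 libraries was left out, and that of Hsp90ab1 also with no filter and with no trend in limma. The call of Trap1 was lost in 7 of the 13 alternatives, among them both rescalings and 3 of the 4 omissions of a library. Over the alternatives the adjusted p came to at most 0.147 for Hsp90ab1, 0.118 for Hsp90aa1 and 0.145 for Trap1. Sdf2, the close relative of Sdf2l1 and also a partner of Dnajb11, had 34.5 and 39.7 FPKM in the 4-NP libraries, against 56.4 and 55.5 FPKM in the controls. Its log2 change was -0.58 (adjusted p = 0.0132), opposite in sign to the 3.82 of Sdf2l1, and it did not pass without either control library (adjusted p up to 0.0677). Dnajc10, another J-domain protein of the lumen, was higher by 0.63 (adjusted p = 0.0123), a call lost without either 4-NP library (adjusted p up to 0.0700).

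The pair that broke the pattern was Calr and Canx, the membrane-bound lectin chaperone. Canx had 211 and 231 FPKM in the 4-NP libraries, against 109 and 117 FPKM in the controls, a log2 change of 0.95 (adjusted p = 0.00306) beside 0.93 for Calr. The ratio of Canx to Calr was 0.308 and 0.336 in the 4-NP libraries, against 0.308 and 0.322 in the controls. The soluble and the membrane lectin therefore stood in about the same ratio in all 4 libraries. Cdnf, the relative of Manf, was under 0.08 FPKM in every library and was not tested.

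**Figure D4:**
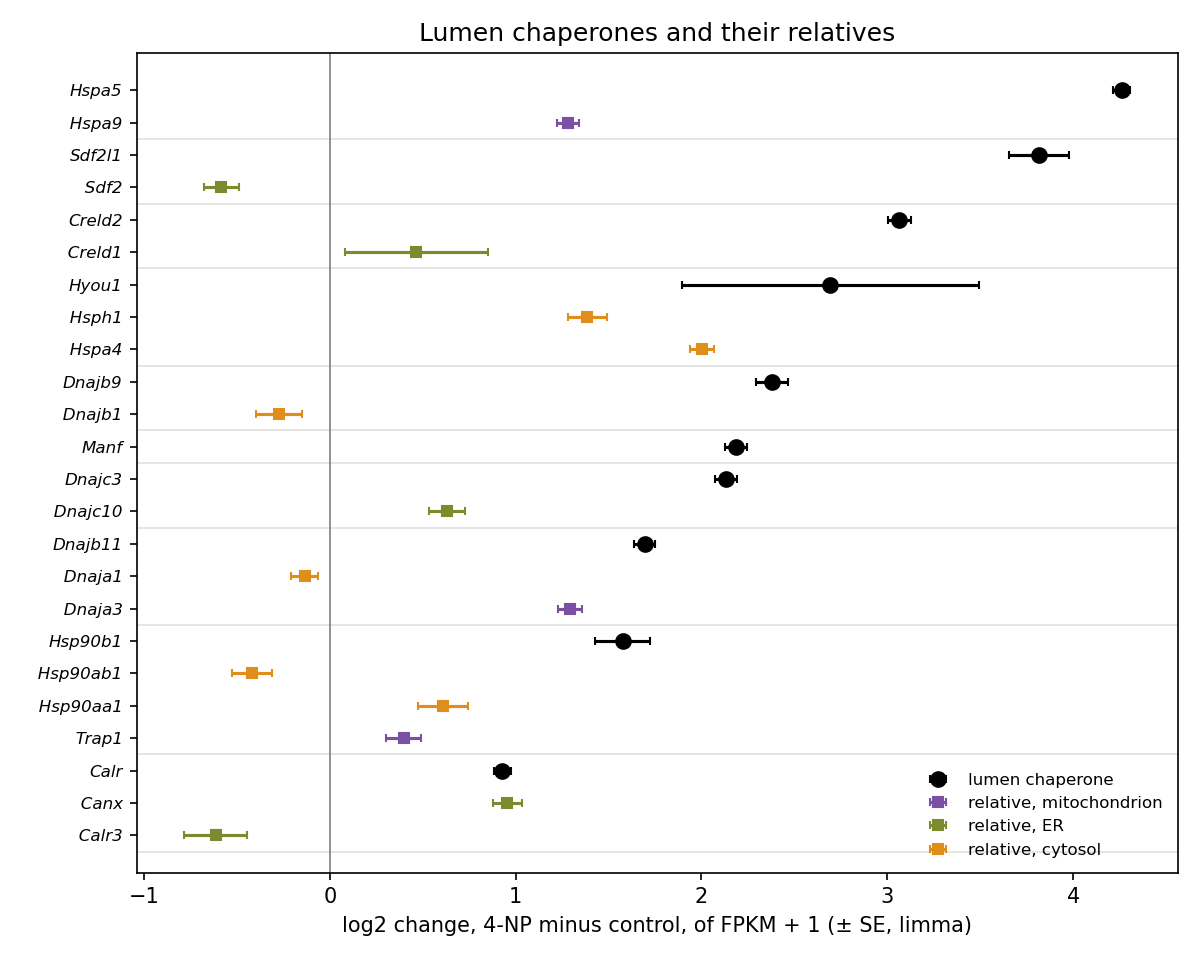
Log2 change of FPKM + 1, 4-NP minus control, with its standard error (limma, 2 libraries per group), for each of the 10 chaperones (black) with its family relatives under it, coloured by compartment. The chaperone lies to the right of its relatives in every pair drawn except Calr and Canx, at 0.93 and 0.95, and the error bar of Hyou1 is the widest.

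Other lists of the folding machinery of the reticulum, drawn up with earlier results known, are read against the 24.7% higher and 23.1% lower among all tested genes. Among disulfide and proline folding enzymes, 7 of 19 tested genes were higher and 5 lower (median 0.33 on the log2 scale). The lower share was near that of all genes. P4hb, the main protein disulfide isomerase, was higher by 1.39 on the log2 scale, at 1834 FPKM in 4-NP cells and 702 FPKM in control cells on average. Fkbp9, a prolyl isomerase, was lower, with means of 104 FPKM in 4-NP cells and 203 FPKM in control cells. In the lectin chaperone cycle, 8 of 9 were higher and 0 lower (median 0.79), among them Man1b1, a mannosidase that marks glycoproteins for degradation, at 1.52, and 5 to 6 were higher when 1 library was left out (5 without control replicate 1).

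Among other BiP partners and the KDEL receptors, 7 of 18 tested genes were higher and 4 lower (median 0.34), a lower share again near that of all genes. The higher genes numbered 2 without 4-NP replicate 1 and 1 without 4-NP replicate 2. Kdelr2, a receptor that returns chaperones with a KDEL-type tail from the Golgi, had 209 and 199.8 FPKM in the 4-NP libraries, against 69.1 and 71.9 FPKM in the controls (log2 change 1.52, adjusted p = 0.000995). Its relative Kdelr1 had 105 and 108 FPKM in the 4-NP libraries, against 100.0 and 128 FPKM in the controls, and the groups overlapped. Kdelr3 had 111 and 109 FPKM in the 4-NP libraries, against 8.55 and 51.4 FPKM in the controls, and did not pass (adjusted p = 0.112). The controls of Kdelr3 lay far apart. It passed without either control library, with an adjusted p down to 0.0165.

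Of the sensors and transcription factors of the stress response, 9 of 13 tested genes were higher and 0 lower, with a median log2 change of 1.38. The leading ones were Ddit3 (CHOP), a transcription factor, at 4.08, Ppp1r15a, which directs the removal of the phosphate from eIF2 alpha, at 3.23, and the sensor Atf6 at 2.42. Xbp1 was not analysed here. Outside the reticulum, 12 of 23 cytosolic chaperones were higher and 3 lower (median 0.47). Of the mitochondrial chaperones 10 of 11 were higher and 0 lower (median 1.07). These counts and that of the sensors stand beside 24.7% higher and 23.1% lower among all tested genes. The median of the lumen chaperones, 2.28, was above that of each of these lists, a difference that was not tested. The median of 2.28 counts Hsp90b1, which entered the test only through 4-NP cells. With a filter of 5 FPKM, which leaves out Hsp90b1, it was 2.38, and the highest of the other lists was 1.43.

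**Figure D5:**
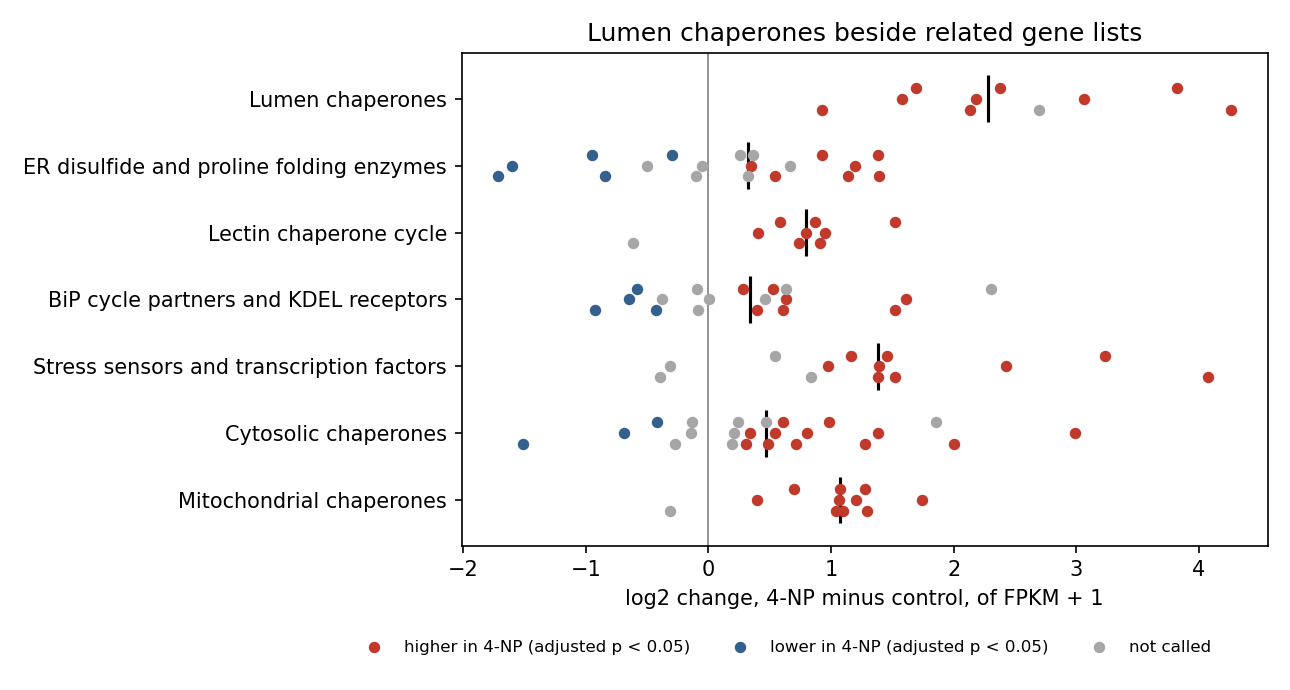
Log2 change of FPKM + 1, 4-NP minus control, of each tested gene (points) in 7 gene lists, with the list's median as a black bar. Red points were higher and blue points lower in 4-NP cells at an adjusted p under 0.05 (limma), and grey points did not pass. The lumen chaperones have a median of 2.28, and the other lists have medians between 0.33 and 1.38.

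The libraries had 104 and 96.6 M mapped reads in 4-NP cells and 116 and 119 M in control cells. Marker levels differed between the groups along with the chaperones. Peritubular myoid markers were lower in 8 of 8 tested genes, beside 23.1% lower among all tested genes. Their summed levels were 648 to 660 FPKM in 4-NP libraries and 7893 to 7978 FPKM in controls. Of the 15 Sertoli markers 12 were listed, and the defining genes Sox9, Gata4 and Fshr were under 1 FPKM in all 4 libraries. Clu averaged 14.6 FPKM in 4-NP libraries and 66.1 FPKM in controls, and Inha averaged 1.72 FPKM in 4-NP libraries and 16.3 FPKM in controls. Cldn11, Wt1, Kitlg, Dhh, Inhbb and Rhox5 were between 1.22 and 11.4 FPKM in controls and at most 1.25 FPKM in 4-NP libraries. The list sum ran the other way, with 972 to 1001 FPKM in 4-NP libraries and 524 to 528 FPKM in controls, through Ctsl, which is also expressed in many other cells. In control cells the Sertoli label was thus only partly met, and the summed myoid markers stood far above the summed Sertoli markers. In 4-NP libraries no listed Sertoli marker except Ctsl and Clu was above 1.78 FPKM, so the markers hardly bear out the label there. The Leydig sum was nearly all Star, at 813 and 788 FPKM in 4-NP libraries and 310 and 305 FPKM in controls, while Cyp11a1 had 0.0883 and 0.142 FPKM in 4-NP libraries and 1.15 and 1.05 FPKM in controls. The germ cell sum, 72.3 to 97.2 FPKM in 4-NP libraries and 25.4 to 39.4 FPKM in controls, was mostly Uchl1 in 4-NP libraries, at 68.0 and 91.7 FPKM, against 17.2 and 3.16 FPKM in controls. Of 5 tested germ cell markers Uchl1 was higher and Dazl, Kit, Tex101 and Id4 were lower, beside 24.7% higher and 23.1% lower among all tested genes. Ddx4 had 1.33 FPKM in both controls and 0 in both 4-NP libraries, and was not tested. Zbtb16 and Sycp3 were under 1 FPKM in all 4 libraries. Macrophage markers summed to 1.38 to 1.50 FPKM in 4-NP libraries and 9.70 to 10.2 FPKM in controls, and endothelial markers to 0.451 to 0.641 FPKM in 4-NP libraries and 7.78 to 8.28 FPKM in controls. The part of cell make-up in the chaperone levels was not tested, and in bulk RNA a change in the share of a cell type and a change of RNA per cell cannot be told apart.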

How the data were processed

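Total RNA of 2 libraries of 4-NP-treated and 2 libraries of control rat Sertoli cells was sequenced by the authors after ribosomal RNA removal. Groups and replicate numbers were read from the sample titles, and the deposited columns named NP were matched to the treated samples. HISAT2 and DESeq2 appear in the submitters' processing notes, FastQC and edgeR in the study's methods. For versions, build, assembler and circRNA caller, nothing is given in the sources used here. The authors deposited FPKM per transcript for mRNAs, with fold, log2, p-value and q-value columns of their own comparison, which were not used. The authors also deposited circRNA read counts and a scaled signal (spliced reads per mapped reads), of which the ratio gave the mapped reads per library. The deposited lncRNA table was not used.

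The mRNA table held 17290 rows. Rows with a repeated transcript name (1545) were dropped, and FPKM of the remaining 15745 transcripts was summed per gene name. Of the names, 8 lay on more than 1 chromosome. Values of genes with a near-identical copy are uncertain, since reads may be split between copies. Gene names with a mean of at least 1 FPKM entered a two-sided limma test (version 3.58.1, R 4.3.3, trend, group as the only term) of log2(FPKM + 1). Benjamini-Hochberg adjustment ran over all 8012 genes, with a threshold of 0.05. The count test the study names needs counts, so it was not used on FPKM. An exact permutation test of 2 against 2 libraries cannot go below p = 0.333. The fit was also run on simulated data, with far fewer changed genes and with spreads drawn without regard to level. That setting differs from these data, so nothing is drawn from it. Other steps used Python 3.11.15, pandas 2.3.3, numpy 2.4.6 and matplotlib 3.10.9.

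The members and the gene lists were chosen with earlier results of these data known. Named genes were the 10 chaperones, their family relatives, the 3 genes of each list with the smallest p, and the 5 genes whose 4 centred log2 values lay nearest to the mean of the 10 chaperones. Kdelr1, Kdelr3 and the genes outside these lists that hold an ERSE or ERSE-II were named after their values were seen. Alternatives were the pseudocount, the filter, the scaling, a fit with no trend, the highest transcript only, a replicate block and the omission of each library in turn. Promoter sequences are from RefSeq (GRCr8), and were matched by gene symbol.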

Additional observations from a re-analysis of the deposited data

How the results depend on the processing

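Of 129 values of the log2 changes of the 10 chaperones under 13 alternatives, 127 kept their direction and their side of the threshold, among them 116 of 116 for the 9 genes other than Hyou1, and the other 2 were Hyou1, which passed without 4-NP replicate 1 and with a mean of at least 5 FPKM (adjusted p = 0.0468), while Hsp90b1 was not tested under the stricter filter. In the other settings 9 chaperones passed, and 10 without 4-NP replicate 1. Leaving out 1 library gave 2422 to 2745 genes past the threshold in place of 3831, with 2422 without 4-NP replicate 2, where the lone library is assumed to vary like the other group. With only the highest transcript of each gene the chaperones made up 3.51% of FPKM in 4-NP cells and 0.384% in control cells, where all transcripts gave 3.44% in 4-NP cells and 0.374% in control cells. Fits with the replicate number as a block gave 3216 genes and 9 chaperones, and same-numbered libraries did not deviate together (r = -0.01 over 8012 genes), so the numbers were not taken as a pairing. When 1 library was left out, fewer disulfide and proline folding enzymes passed as lower. Fewer cytosolic chaperones passed in either direction, and in some of these fits fewer mitochondrial chaperones passed as higher. FPKM keep no read count per gene, so the counting error at the level of Hsp90b1 is unknown, and 2 libraries per group limit every test here.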

Other observations

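Besides the chaperones, 11 tested genes held an ERSE or an ERSE-II in their promoter window. Of them 8 were higher and 3 lower in 4-NP cells, beside 24.7% higher and 23.1% lower among all tested genes. The 2 elements differed here. Of 6 genes with an ERSE, 3 were higher and 3 lower. Of 5 genes with an ERSE-II, 5 were higher and 0 lower. One of the 8 higher genes, Defb52, which held an ERSE-II, was listed at 0 in both controls. It entered the test only through 4-NP cells, so it adds no support. Herpud1, which takes part in the degradation of misfolded protein, had 244 and 236 FPKM in the 4-NP libraries, against 56.7 and 56.3 FPKM in the controls (log2 change 2.07). Ero1b, an oxidase that drives disulfide formation in the reticulum, had 9.62 and 9.57 FPKM in the 4-NP libraries, against 3.14 and 2.91 FPKM in the controls. Zfand2a, a zinc finger protein induced by arsenite, had 11.8 and 9.35 FPKM in the 4-NP libraries, against 0.917 and 1.09 FPKM in the controls. Birc5, an inhibitor of apoptosis that acts in cell division, ran the other way, with a mean of 4.48 FPKM in 4-NP cells and 17.1 FPKM in control cells, and its window also held an ERSE. Ankmy2 and Zfp57 were lower as well, with log2 changes of -0.31 and -0.93. Both calls were lost in fits that left out 1 library. The same held on the higher side for Ggct and Rcl1, both with an ERSE-II, with log2 changes of 1.04 and 0.70.

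The genes outside the lists whose pattern over the 4 libraries was nearest to the mean of the 10 chaperones, by Euclidean distance of centred log2 values, were Qpct, Pappa1, Kctd13, Csf3 and Srpra. Csf3, at 0.0182 and 0.119 FPKM in the controls, entered the test only through 4-NP cells. Its log2 change ran from 0.94 to 4.90 over the settings, so its place here is no support for a likeness. Qpct, which forms pyroglutamate at the start of secreted peptides, had 82.3 and 96.3 FPKM in the 4-NP libraries, against 14.4 and 14.8 FPKM in the controls, at a distance of 0.116. Srpra, a subunit of the receptor that docks ribosomes of secreted proteins on the reticulum, had 153 and 159 FPKM in the 4-NP libraries, against 27.8 and 29.9 FPKM in the controls, at a distance of 0.198. With 4 libraries in 2 groups this measure mostly ranks genes by the size of their change.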
